A study of Mus musculus with 4 samples.

Results

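The SLAM receptor cluster is a run of immune receptor genes on mouse chromosome 1, and its accessible regions were compared between wild type (WT) and Med23-deficient (KO) hematopoietic stem cells. The members were the 5 genes Slamf1, Cd48, Slamf7, Ly9 and Slamf6. Their accessible regions were all peaks that overlapped the span from the first to the last base of these genes, extended by 30 kb on each side (chr1:171558624-171983170, mm10). This rule took 10 of the 37887 peaks of the WT list and 10 of the 37615 peaks of the KO list on the 19 autosomes and chromosome X. Each peak was assigned to the protein-coding gene with the nearest annotated start site. The neighbours Cd244a and Cd84 lie inside the same span and belong to the same receptor family, and their peaks are given under their own names.

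The assay was ATAC-seq, which reads out open chromatin by where a transposase can insert, and it was run on 4 samples of stem cells sorted from the bone marrow of adult C57BL/6 mice. WT mice carried floxed Med23 on both alleles without cre, and KO mice carried the same floxed alleles with Mx1-cre, an interferon-inducible transgene that is active in blood cells and in other tissues. In the study's methods, deletion is induced with poly(I:C), and the sources used here do not state whether the WT donors of this assay received it. The labels assign 2 samples to each genotype but name 1 list of peaks for both, so no value below has a replicate check, no difference could be tested between genotypes, and a KO to WT difference cannot be told apart from a difference between the libraries. The labels give the sort as Lineage-, Sca-1+ and Kit+ cells that were CD150+, CD34- and CD48-, while the study's methods for this assay name CD150 and CD48 but not CD34. Both SLAM proteins in that gate are products of members, CD150 of Slamf1 and CD48 of Cd48. In both genotypes, accessibility at these genes was thus measured in cells chosen by the surface proteins that the genes encode. Such a gate sets a threshold and does not fix the level within it.

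SLAM receptors are cell surface proteins with immunoglobulin-like domains, and most of them bind the same receptor on a neighbouring cell. CD48 is an exception: it is anchored to the membrane by a lipid, has no cytoplasmic tail, and is the ligand of CD244 and of CD2. The tails of most other family members recruit the small adaptors SAP and EAT-2, through which the kinase Fyn is engaged, or phosphatases that damp the signal. In bone marrow, CD150 without CD48 marks cells enriched for stem cell activity, while lymphoid cells carry Ly9, Slamf6 and Slamf7 in different combinations.

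The sequences below show the regions on which the comparison of the members turns: the only promoter region of a member, the 3 shared regions of Slamf1 and Slamf6, and the higher peak of each list that had no counterpart. Each is the stretch of 200 bases around a summit on the forward strand of GRCm38.p6, the assembly that mm10 names, and the Cd48 window stops at the base before the transcript. Capitals mark matches, on either strand, to the letters of 9 transcription factor motifs named with the results on sequence. Shared regions are shown at the WT summit.
Cd48 promoter, chr1:171681855-171682008: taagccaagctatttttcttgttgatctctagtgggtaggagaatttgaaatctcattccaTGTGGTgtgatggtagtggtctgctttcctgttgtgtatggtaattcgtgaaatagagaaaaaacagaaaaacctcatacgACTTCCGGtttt
Slamf1 upstream, chr1:171761965-171762164: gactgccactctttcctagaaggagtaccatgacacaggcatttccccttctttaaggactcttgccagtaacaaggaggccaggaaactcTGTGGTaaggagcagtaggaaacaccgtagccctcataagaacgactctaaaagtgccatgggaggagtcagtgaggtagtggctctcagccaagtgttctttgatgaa
Slamf1 intron, chr1:171773222-171773421: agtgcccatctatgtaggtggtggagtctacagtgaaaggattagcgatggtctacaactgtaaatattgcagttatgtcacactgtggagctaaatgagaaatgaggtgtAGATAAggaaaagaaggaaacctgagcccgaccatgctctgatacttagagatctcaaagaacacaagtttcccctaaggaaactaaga
Slamf6 intron, chr1:171921109-171921308: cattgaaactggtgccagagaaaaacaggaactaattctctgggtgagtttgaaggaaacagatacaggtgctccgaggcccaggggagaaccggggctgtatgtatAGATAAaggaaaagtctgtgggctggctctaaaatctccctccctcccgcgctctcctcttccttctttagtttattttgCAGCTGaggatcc
Ly9 upstream, WT only, chr1:171619186-171619385: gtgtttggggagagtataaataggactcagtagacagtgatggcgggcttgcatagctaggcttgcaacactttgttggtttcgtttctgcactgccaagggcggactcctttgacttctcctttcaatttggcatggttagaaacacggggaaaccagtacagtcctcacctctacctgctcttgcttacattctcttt
Slamf7 downstream, KO only, chr1:171631549-171631748: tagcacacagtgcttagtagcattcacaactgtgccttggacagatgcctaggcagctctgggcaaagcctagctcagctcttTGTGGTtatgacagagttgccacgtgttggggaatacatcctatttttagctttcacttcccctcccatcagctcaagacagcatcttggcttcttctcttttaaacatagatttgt
The Cd48 window holds a RUNX match and an ETS match, the latter close to the start of the transcript. The Slamf1 intron and Slamf6 intron windows each hold the GATA letters AGATAA, and the Ly9 window holds no match to any of the 9 motifs.

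The sites that were open at the cluster were weakly enriched in both genotypes. The values below are pileups, the whole number of overlapping read extensions at the summit of a peak, recovered from the authors' fold enrichment and −log10 p. In the WT list the pileup at the 10 peaks ranged from 7 to 23 with a median of 12, and in the KO list it ranged from 8 to 27 with a median of 13.5. The medians over all peaks were 18 in WT and 19 in KO. The authors' fold enrichment had a median of 5.12 at the cluster in WT and 6.17 in KO, against 6.38 and 7.44 over all peaks. Only 2 of the 10 WT peaks and 4 of the 10 KO peaks lay in the upper 50% of their list by fold enrichment. Peaks covered 6552 bp of the 424547 bp span in WT and 5483 bp in KO. That is 1.54% and 1.29% of the span, where peaks covered 1.03% and 1.02% of the genome. The read totals are unknown, and the genome-wide background was a pileup of 1.19 in WT and 1.13 in KO.

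**Figure D1:**
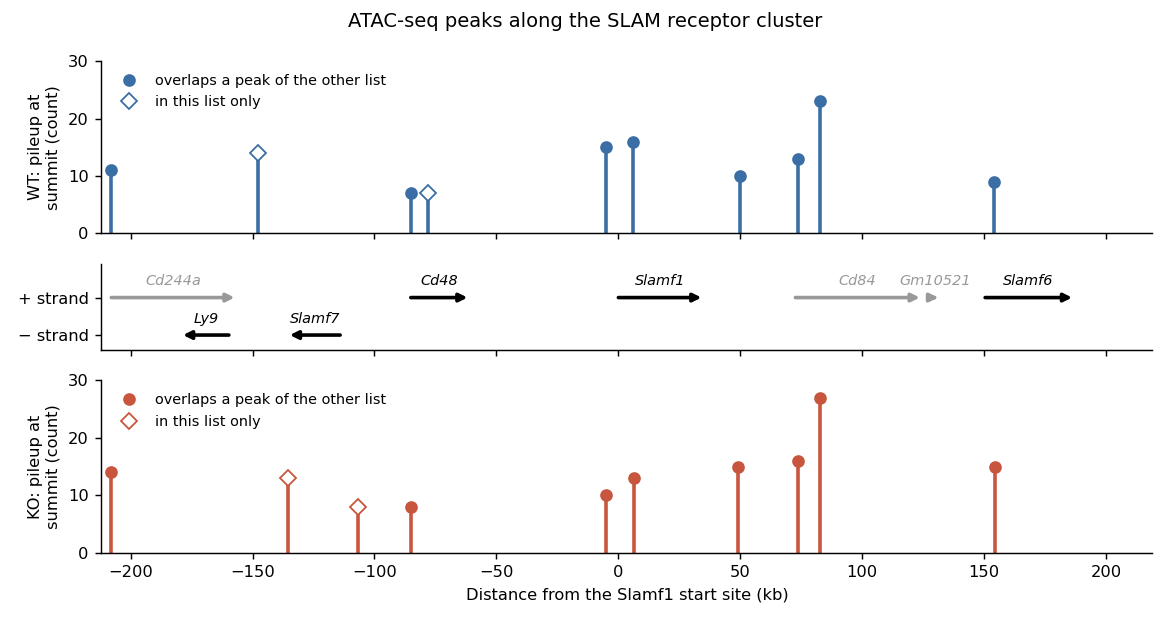
Pileup at the summit of each peak of the SLAM receptor cluster in the WT list (top) and the KO list (bottom), by distance from the Slamf1 start site in kb. Arrows show the protein-coding genes by strand, with members in black and other genes in grey. Filled circles overlap a peak of the other list and open diamonds do not. The highest summit in both lists lies in Cd84, with a pileup of 23 in WT and 27 in KO.

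The peaks of both lists merged into 12 regions, of which 8 were in both lists, 2 only in the WT list and 2 only in the KO list. Thus 8 of 10 peaks in each list overlapped a peak of the other (80.0%, 95% Wilson interval 49.02 to 94.33%). Over the genome, peaks without overlap made up 21.7% of the WT list and 20.7% of the KO list, so that 2 of 10 at the cluster is close to the background of each list. Of the 12 regions, 8 were assigned to members and 4 to Cd84 or Cd244a. The 4 regions that were in 1 list only all lay between the Ly9 and Slamf1 genes, a stretch that holds Slamf7 and Cd48.

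Slamf1 (ENSMUSG00000015316.11, chr1:171767127-171801184, plus strand), which encodes CD150, had 2 shared regions, and both had lower pileups in KO. The region upstream of the gene (chr1:171761822-171762785) is intergenic, with its summit 5062 bp before the start site in WT and 5256 bp before it in KO. There the WT list had a pileup of 15 and the KO list one of 10. The region in an intron (chr1:171772944-171773693), about 6.2 kb past the start, had a pileup of 16 in WT and 13 in KO. A KO to WT ratio is given on the log2 scale, each pileup being first divided by the genome-wide background of its list. It was −0.50 upstream (95% exact binomial interval −1.81 to 0.75) and −0.21 in the intron (−1.39 to 0.93). These intervals cover counting error only, and both contain 0. In bulk cells, fewer cells with the site open and less opening per cell cannot be told apart. Both regions were also narrower in KO, at 522 bp against 904 bp upstream and 432 bp against 750 bp in the intron. With pileups summed over both regions, 31 for WT and 23 for KO, the log2 ratio was −0.34 (−1.19 to 0.48). The local background of the caller was itself lower in KO at both regions, 1.13 against 1.68 upstream and 1.37 against 1.85 in the intron. The authors' fold enrichment divides the pileup by that local background after the same constant is added to both. On that scale the log2 ratios were −0.21 and −0.01. Neither list had a peak at a Slamf1 start site, although the cells were sorted for CD150.

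Cd48 (ENSMUSG00000015355.13, chr1:171682009-171705258, plus strand), which encodes the surface protein that the sort selected against, was the only member with a promoter peak. A promoter peak is one with its summit within 1000 bp of a start site. The region (chr1:171681862-171682279) had a pileup of 7 in WT, with its summit 54 bp before the start, and of 8 in KO, with its summit 83 bp past it in an untranslated exon. The log2 ratio was 0.28 (−1.38 to 1.97). These were among the weakest peaks of the cluster, at a fold enrichment of 3.65 in WT and 4.23 in KO. The noncoding gene A630035G10Rik starts beside Cd48, and its start was the nearest of any gene type to the WT summit. A further WT peak lay in an intron of Cd48 (chr1:171689041-171689303), 7.1 kb past the start, with a pileup of 7 and no KO counterpart. The nearest start of any gene type to its summit was 838 bp away, that of Gm37010, which is not annotated as protein-coding. Among all WT peaks with a pileup of 7, 75.6% had no overlapping KO peak.

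Slamf6 (ENSMUSG00000015314.10, chr1:171917515-171953170, plus strand), whose product Ly108 is carried by T cells and natural killer cells, had 1 shared region, in an intron (chr1:171920914-171921461). Its pileup was 9 in WT and 15 in KO, and the summits lay 1717 bp and 1910 bp past the nearest of its 7 annotated starts. The log2 ratio was 0.82 (−0.46 to 2.20), the highest of the shared regions of the cluster, and its interval also contains 0. The fold enrichment was 4.27 in WT and 7.53 in KO.

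Ly9 and Slamf7 each had peaks in 1 list only, and neither had a promoter peak. Ly9 (ENSMUSG00000004707.14, chr1:171588624-171607410, minus strand), which encodes the lymphocyte receptor CD229, had 1 WT peak in intergenic sequence 11876 bp upstream (chr1:171619199-171619947), with a pileup of 14, a fold enrichment of 6.84 and a −log10 q of 8.84. Slamf7 (ENSMUSG00000038179.13, chr1:171632403-171653035, minus strand), whose product CRACC is found on natural killer and plasma cells, had 2 KO peaks. The higher one (chr1:171631407-171631738) had a pileup of 13 and a −log10 q of 7.96, with its summit 754 bp past the 3′ end of the gene, and the other (chr1:171660344-171660655) had a pileup of 8 and lay 7.5 kb upstream. Peaks of this height are often in 1 list only. Of all WT peaks with a pileup of 14, 23.1% had no overlapping KO peak. Of all KO peaks with a pileup of 13 or 8, 31.9% and 61.3% had no overlapping WT peak. The lists hold only what the caller accepted, so the signal of the other genotype at these 3 sites is not known, and the absence of a peak is not an absence of reads.

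**Figure D2:**
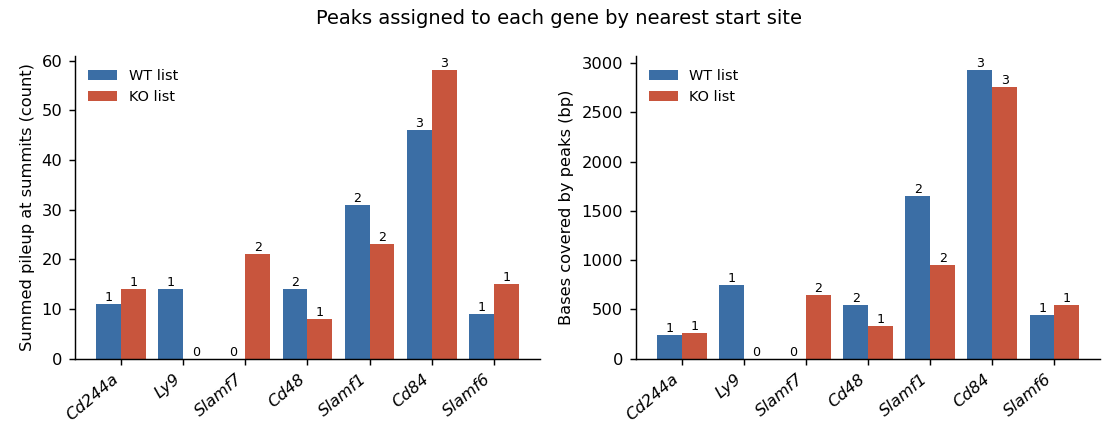
Pileup summed over summits (left, count) and bases covered by peaks (right, bp) for each gene of the cluster in genome order, with WT in blue and KO in red. Digits above the bars give the number of peaks. The summed pileup of Slamf1 is 31 in WT and 23 in KO, that of Slamf6 is 9 and 15, and Ly9 and Slamf7 have bars in 1 list only. With 1 list per genotype there are no error bars.

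The highest site of the span was at a receptor that is not a member. Cd84, a self-binding receptor of platelets and myeloid cells, had 3 shared regions, and Cd244a, the receptor for CD48, had 1. The intronic Cd84 region about 9.1 kb past a start site (chr1:171849340-171850107) was the highest of the cluster, with a pileup of 23 in WT and 27 in KO and a log2 ratio of 0.32 (−0.54 to 1.19). The region at an alternative Cd84 start (chr1:171839803-171841297) had pileups of 13 and 16 and a ratio of 0.39 (−0.76 to 1.56). The region upstream of Cd84 (chr1:171815867-171817285) had pileups of 10 and 15 and a ratio of 0.67 (−0.58 to 1.99), but its WT and KO summits lay 1037 bp apart, so that this ratio compares different points of 1 broad region. At the Cd244a promoter (chr1:171558929-171559237) the pileups were 11 and 14 and the ratio was 0.43 (−0.81 to 1.72).

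Over the 8 shared regions the log2 ratio had a median of 0.35 and ranged from −0.50 to 0.82. It was above 0 in 6 regions and below 0 in the pair at Slamf1. Over all 28909 regions with 1 peak of each list the median was 0.17, the SD 0.42, and 65.6% were above 0. The median of all shared regions lay inside the interval of each of the 8 regions. At least 1.5-fold above that median was 1 of the 8 regions, at Slamf6, where 7.64% of all shared regions were. At least 1.5-fold below it was 1 of the 8, upstream of Slamf1, where 7.91% of all shared regions were. Among the 16239 shared regions whose summed pileup was between 15 and 50, as at the cluster, the shares were 9.77% above and 10.9% below, close to 1 in 8 each. On the scale of the authors' fold enrichment, 0 of the 8 were past 1.5-fold in either direction. The share of all shared regions past it on that scale is not given here. Summed over the 8 regions, the pileup came to 104 for WT and 118 for KO, with a log2 ratio of 0.27 (−0.12 to 0.66).

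**Figure D3:**
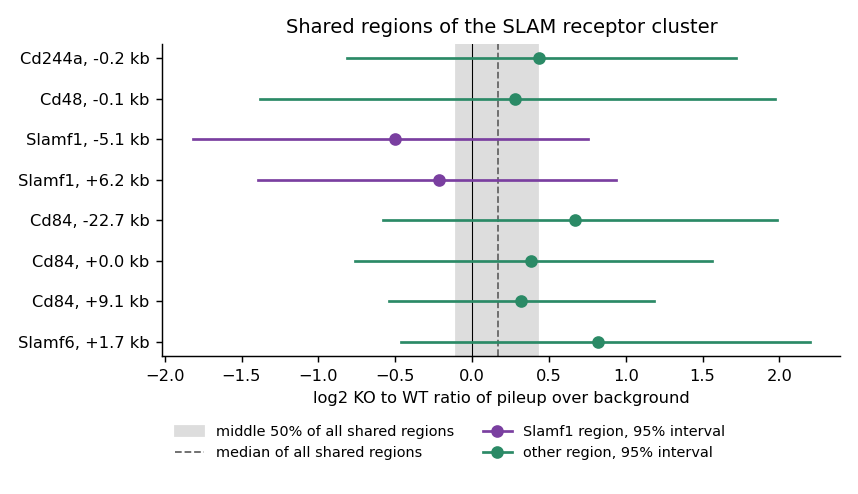
Ratio of KO to WT (log2, each pileup divided by the genome-wide background) at the 8 shared regions, named by gene and distance of the WT summit from the nearest start site. Bars are 95% exact binomial intervals for counting error only. The dashed line is the median of all shared regions, 0.17, and the grey band their middle 50%. Every bar crosses the dashed line and 0, and the points at Slamf1 are the only ones below 0.

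The positions of the summits were less alike than the overlap of the peaks. Gaps over all shared regions are not given here, so whether this is particular to the cluster is not known. Of the 8 shared regions, 3 had their summits within 100 bp of each other: the Slamf1 intron at 45 bp, the alternative Cd84 start at 39 bp and the Cd84 intron at 36 bp. The gap was 194 bp upstream of Slamf1, 193 bp at Slamf6, 155 bp at Cd244a and 138 bp at Cd48. The KO to WT ratios at these regions thus also compare different points, and both regions past 1.5-fold are among them. The 3 regions with the smallest gaps also had the highest pileups in WT and KO together.

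**Figure D4:**
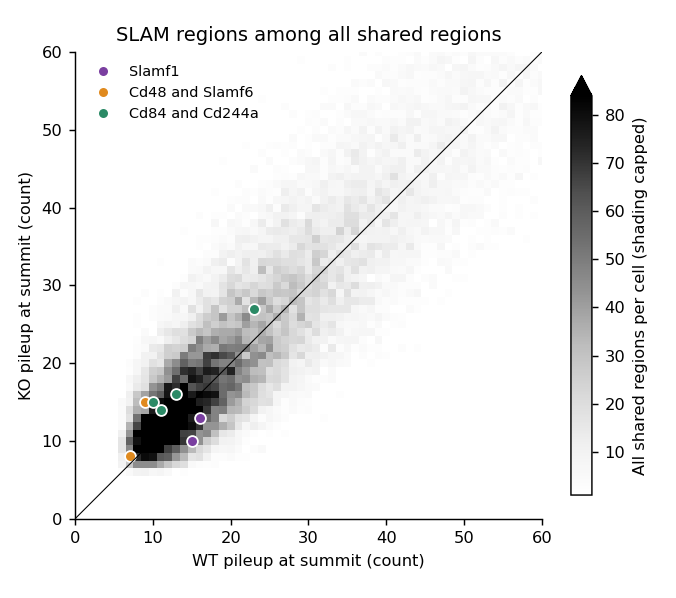
Pileup at the summit in WT (horizontal) and KO (vertical) for regions with 1 peak of each list, both as counts up to 60. Grey cells give the number of all shared regions, with the shading capped, and coloured points are the 8 regions of the cluster. The line marks equal pileups. The cluster lies among the lower values of the genome, and the Slamf1 points, 15 against 10 and 16 against 13, lie under the line.

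Promoter peaks were rarer at the members than at protein-coding genes as a whole, as counts and with no test. Of the 5 members, 1 had a promoter peak in each list, where 61.1% of 21755 protein-coding genes had one in WT and 60.8% in KO. Within 2500 bp the count was 2 of 5, with Slamf6 added, against 64.5% and 63.6%. Of 13 further genes of the pathway, 9 had a promoter peak in WT and 8 in KO. The other receptors were Cd244a and Cd84 in both lists, Slamf8, a receptor of macrophages, with a pileup of 10 in WT and 7 in KO, and Slamf9 in WT only with a pileup of 9. Among all WT peaks with a pileup of 9, 56.4% had no overlapping KO peak. Neither list had a promoter peak at Cd2, the other CD48 receptor, or at the adaptor genes Sh2d1a, which encodes SAP, Sh2d1b1 and Sh2d1b2.

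The 5 signalling enzymes among the pathway genes all had promoter peaks in both lists, with pileups of 14 to 97, where those of the receptors were 7 to 16. Fyn, the kinase recruited by SAP, had a promoter pileup of 80 in WT against 97 in KO, with a log2 ratio of 0.36 (−0.08 to 0.81). At Ptpn6, which encodes the phosphatase SHP-1, it was 39 and 57, with a ratio of 0.63 (0.02 to 1.26). This interval does not contain 0 but does contain the median of all shared regions. Inpp5d, which encodes the lipid phosphatase SHIP1, had pileups of 20 and 30 with a ratio of 0.67 (−0.19 to 1.56). Ptpn11, which encodes SHP-2, had 16 and 14, and Csk, the kinase that restrains Fyn and its relatives, had 25 and 17 with a ratio of −0.47 (−1.45 to 0.48). These ratios set the highest promoter peak of each list against each other, and whether the 2 peaks overlap was not checked. Inpp5d and Csk each had 1 promoter peak in WT and 2 in KO, so their ratios may compare different sites.

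**Figure D5:**
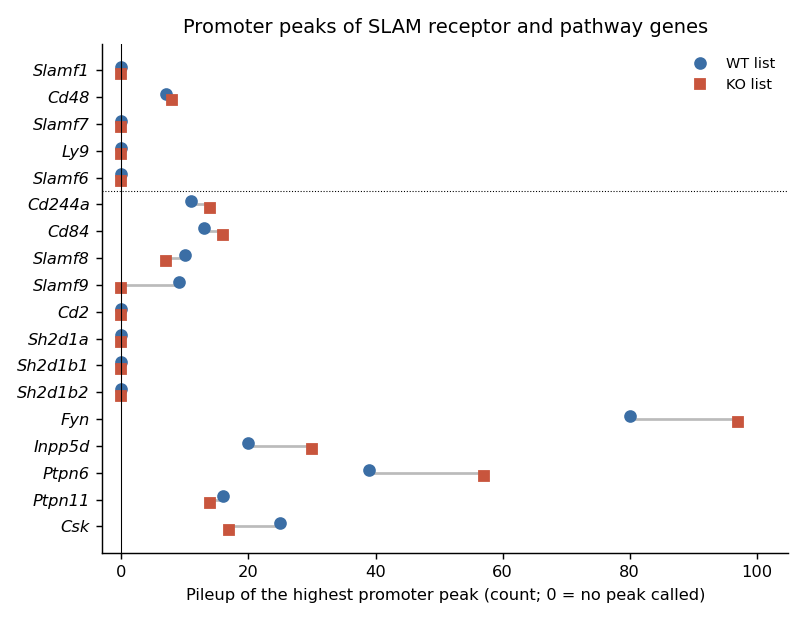
Pileup (count) of the highest promoter peak of each member (above the dotted line) and each further pathway gene (below it) in the WT list (circles) and the KO list (squares). A value of 0 stands for no peak called within 1000 bp of a start site. Cd48 is the only member away from 0, at 7 and 8, and Fyn is the highest gene at 80 and 97.

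The label of the cells was checked at the promoters of marker genes. Of 6 stem cell markers, Kit, Mecom and Hlf had a promoter peak in both lists, and Ly6a, Slamf1 and Procr had one in neither. Of the 4 markers of mature lineages reported here, Cd3e, Cd4, Cd8a and Ly6g, none had one in either list. Peaks at these promoters do not measure how many cells of a type were present.

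Most promoters of the cluster held few CpG dinucleotides. RefSeq promoters of GRCm38.p6 run from 250 bases before to 50 after a start. Of the 7 receptor genes of the span, 6 matched that table, Ly9 being the other. The Cd48 promoter had 7 CpG dinucleotides and a GC content of 47.3%. The promoters of Slamf1, Slamf6, Slamf7 and Cd84, which no peak overlapped, had 4, 1, 3 and 3 CpG and a GC content of 39.0 to 49%. The Cd84 promoter peak counted above lies at an alternative start, outside this RefSeq window. The Cd244a promoter was overlapped by a peak in both lists with 2 CpG. Over all 32619 promoters the median was 7 CpG and 53.0% GC. Among the 14100 promoters with 5 or fewer CpG, 6.35% were overlapped by a WT peak and 6.42% by a KO peak, against 67.5% and 67.0% of the 18519 with more. The 4 RefSeq promoters that no peak overlapped all belonged to the former group, and so did that of Cd244a.

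Motif matches in the 200-base summit windows were counted on both strands. The RUNX letters TGTGGT were present in 6 of 10 WT windows and 3 of 10 KO windows of the cluster, against 19.95% and 20.07% of all windows. The GATA letters, AGATAA or TGATAA, were in 2 of 10 windows in each list, against 14.1% and 13.9%. The AP-1 letters, TGA and TCA with any base between them, were in 1 WT and 3 KO windows, against 7.72% and 7.93%. For C/EBP the letters TTGCNNAA were in 2 WT and 0 KO windows, against 7.82% and 7.64%. The letters searched were CCGGAAGT for ETS factors. For PU.1, itself an ETS factor, they were GAGGAAGT, which end in the same bases. The E-box was CAGCTG, and the ISRE and CTCF motifs were searched by their core letters. The ETS, PU.1 and E-box letters were in 1 window each in both lists, against 2.36%, 6.14% and 13.7% of all WT windows and 2.33%, 6.89% and 14.0% of all KO windows. The ISRE letters were in 0 windows of the cluster, against 4.17% and 4.47% of all windows, and the CTCF letters in 0, against 2.97% and 2.92%. Each window was centred on the summit of its own list, and 5 of the 8 pairs of summits lay more than 100 bp apart. The median GC content of the windows was 47.5% in WT and 46.3% in KO, lower than the 53.5% and 53.0% of all windows. A match is a match of letters only.

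Other gene clusters of blood cells were handled by the same rule as a measure of how far such counts vary. The Gimap cluster of lymphocyte GTPase genes on chromosome 6 had 9 WT and 7 KO peaks, of which 5 were shared, with a median log2 ratio of −0.21. The S100a cluster of calcium-binding protein genes on chromosome 3 had 14 and 11 peaks, of which 10 were shared, with a median log2 ratio of 0.12. The SLAM receptor cluster had 2.36 peaks per 100 kb in each list, the Gimap cluster 4.90 and 3.81, and the S100a cluster 5.72 and 4.50, against 1.44 and 1.43 over the genome. With 1 list per genotype, no difference between these clusters could be tested.

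The span was set by distance, and its edges did not cut through a group of peaks on the upstream side. The last peaks before it lay 54.5 kb outside in WT and 54.3 kb in KO, nearest to Alyref2, with pileups of 42 and 32. The first peaks after it were nearest to Vangl2, 11.8 kb outside in WT with a pileup of 8 and 33.0 kb outside in KO with a pileup of 12. The outermost peaks inside it were those at Cd244a and Slamf6.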

How the data were processed

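ATAC-seq was performed on 5000 sorted cells per sample, with 4 samples, 2 per genotype. Per the labels and the study's methods, the authors used Trim Galore for trimming, Bowtie2 for alignment to mm10, Picard to discard duplicate and mitochondrial reads, and MACS2, without a fragment model, for peaks. Versions are not given in the sources used here, nor whether replicates were pooled. Each list still held 2 mitochondrial peaks. The deposited lists give the authors' fold enrichment (the ratio of pileup to local background, with the same constant added to both), −log10 p and −log10 q. Read totals are unknown.

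From these deposited values a whole-number pileup and local background were solved under the Poisson model of the caller, within 0.001 in −log10 p for 100% of peaks. The median of the 1000 lowest local backgrounds served as genome-wide background. Peaks on 20 sequences were used, peaks overlapping by at least 1 bp were merged, and genes came from GENCODE M21 (GRCm38.p6). KO to WT ratios have exact binomial intervals for counting error only, and shares have Wilson intervals. With 1 list per genotype nothing was tested. A region counted as past the limit at 1.5-fold from the median of all shared regions.

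The members and gene lists were chosen with earlier results of these data known. Regions described in full were promoter regions of members, the 5 with the highest summed pileup (ties included), those in 1 list only and those past the limit. Genes named were the members, 13 pathway genes, marker lists and genes nearest to a peak. The list of mature lineage markers held 6 genes, of which 2 are not reported here. Alternatives changed the flank, the q limit, the overlap rule, the scale of the ratio, the gene types and the promoter distance. Scripts ran in Python 3.11.15 with NumPy 2.4.6, pandas 2.3.3 and SciPy 1.17.1, and the recovery of pileups was tested on simulated data.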

Additional observations from a re-analysis of the deposited data

How the results depend on the processing

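The lists have no replicates, so leaving out a replicate could not be run. No paired analysis was possible because the single list of a genotype carries no replicate number. The KO to WT ratios kept their sign under every alternative run, but the order of the covered bases did not. Pileup over local background without the constant added in the authors' fold enrichment was not run. With peaks under a −log10 q of 10 left out, 1 WT and 4 KO peaks remained, covering 541 bp in WT and 3304 bp in KO, where WT had the larger value without this limit, with 100% of the WT and 25.0% of the KO peaks overlapping and 0 regions only in WT. Over all peaks those shares were 89.3% and 75.6%. Under that limit the members had 0 peaks in the WT list and 1, at Slamf6, in the KO list, and the other KO peaks were at Cd84. With 100 kb on each side, peaks covered 9909 bp in WT and 8992 bp in KO. When summits had to lie within 100 bp, 30.0% of the peaks of each list overlapped and 7 WT and 7 KO peaks did not. The share over all peaks under that rule is not given here, so these counts have no background beside them. On the scale of the authors' fold enrichment, 0 regions were 1.5-fold above and 0 were 1.5-fold below the median, in place of 1 each. Within 2500 bp, 2 members had a promoter peak in WT and 2 in KO. With start sites of any gene type, Cd48 had 0 WT peaks and Slamf7 had 1 KO peak. The cause of these changes was not tested. For the main comparisons, 28 alternative values stayed within the limits set for a change and 17 did not. For the ratios of single regions and the peak counts of single members, 27 stayed within them and 9 did not. Pileups of 7 to 27 limit each ratio, and all 8 intervals contain 0.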

Other observations

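F11r, which encodes a junction adhesion molecule of platelets and epithelial cells, lies before the SLAM receptor cluster and outside the span, and it was named after its values were seen. The KO list had a peak at its promoter (chr1:171437319-171437865), 142 bp before the start site, with a pileup of 28, a fold enrichment of 7.01 and a −log10 q of 15.1. A second KO peak (chr1:171440083-171440558) had a pileup of 18 and a fold enrichment of 4.52. Neither overlapped a WT peak, and the same was true of 20.7% of all KO peaks. That share depends on height: it was 4.7% of KO peaks with a pileup of 27 and 20.6% of those with 16. The shares at pileups of 28 and 18 are not given here. The local background at both F11r peaks of the KO list was 3.13 and 3.21. The WT list had 2 peaks further into the gene, with pileups of 7 and 8, and neither overlapped a KO peak. Over the genome, 21.7% of WT peaks had no overlapping KO peak, and 75.6% of those with a pileup of 7 had none. By pileup the KO promoter peak was above the highest KO peak of the cluster, at 27, but by fold enrichment it was below 4 of them, at 7.53 to 10.07. It lay 120.8 kb before the span. These values come from 1 list per genotype and were not tested.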
